A study of Caenorhabditis elegans with 2 samples.

Results

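The genes described here encode protein subunits of the mitochondrial ribosome of Caenorhabditis elegans. They were all protein-coding genes of the Ensembl WBcel235 annotation (release 115, genome build ce11) whose symbol starts with mrpl- (large subunit) or mrps- (small subunit). The rule gave 70 of 19973 protein-coding genes on the 6 nuclear chromosomes, of which 41 were large-subunit and 29 were small-subunit genes by symbol. The RefSeq product name was that of a ribosomal protein for 69 of the 70. The exception was mrps-27, annotated with an Ig-like domain, and the product of mrps-18C is named as a large-subunit protein although its symbol puts it in the small subunit. The product of mrpl-48 is named after a domain of a small-subunit protein.

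The data are chromatin immunoprecipitation sequencing (ChIP-seq) of C04F5.9 in 2 biological replicates, which form 1 group. The animals were of strain OP525, which carries the allele unc-119(tm4063) on chromosome III and the integrated transgene wgIs525, with C04F5.9 joined at its C-terminus to GFP and FLAG. Hermaphrodites at the first larval stage (L1) were taken 6 hours after they had been synchronised by bleaching and starvation. Chromatin was sonicated and precipitated with an antibody to GFP. There was no second condition, a single transgenic line was used, and whole animals were used, so the cells in which a site was bound are not known. Each replicate had a list of regions, with 30000 in replicate 1 and 28005 in replicate 2. A list from both replicates together (the combined list) had 30000 regions. The optimal list had 1205 regions, labelled as having passed a cutoff on agreement between replicates, and these were the strongest of the combined list. How that agreement was computed is not known. Of the 1205, 4 had no overlapping region in replicate 2, so a place in the optimal list does not show a region in both replicates. Regions were ranked by their deposited signal, with rank 1 the strongest. The scale of the signal is set separately in each list, so signals were compared within a list only. The read depth behind the lists is unknown.

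Mitochondrial ribosomes translate the few proteins encoded by mitochondrial DNA, which are core subunits of the respiratory chain and of the ATP synthase. The ribosomal RNA comes from the mitochondrial genome, whereas every protein subunit named here is made in the cytosol from a nuclear gene and imported. The large subunit holds the peptidyl transferase centre and the exit tunnel, and the small subunit decodes the messenger RNA. Many C. elegans genes lie in operons, runs of genes on the same strand that are transcribed together from the promoter of the first gene and separated by trans-splicing. An annotated 5′ end in C. elegans therefore need not be a site of transcription initiation.

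At 15 of the 70 mitochondrial ribosomal protein genes an optimal summit was no farther than 500 bp from the 5′ end of some annotated transcript, which is 21.4% (95% exact binomial interval 12.5 to 32.9). Over all protein-coding genes the share was 5.51%. The large subunit had 8 of 41 genes with such a summit (19.5%, interval 8.82 to 34.9), and the small subunit had 7 of 29 (24.1%, interval 10.3 to 43.5). The intervals of the subunits overlap over most of their length. These intervals cover counting error only and treat genes as independent, although neighbouring genes can share a summit. With 1 group of samples no test between conditions exists, and the difference from all genes was not tested. The 15 genes had 15 different peaks.

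The sequences around the summits of the strongest peaks are given here because they show what the precipitated DNA at these genes looks like. Each is 101 bases centred on the summit, 5′ to 3′ on the strand of the gene, from the ce11 reference, at the 6 strongest peaks with a summit outside annotated UTRs, which leaves out mrps-35. The order is by rank, and capitals mark any of 4 words described further on, of which 3 overlap at mrps-7.
mrpl-28, chrII:156049-156149, minus strand: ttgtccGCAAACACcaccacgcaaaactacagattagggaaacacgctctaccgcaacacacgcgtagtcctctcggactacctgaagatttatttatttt
mrpl-55, chrIV:443791-443891, plus strand: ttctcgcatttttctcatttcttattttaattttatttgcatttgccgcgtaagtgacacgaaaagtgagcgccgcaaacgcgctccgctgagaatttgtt
mrpl-18, chrIII:8144707-8144807, plus strand: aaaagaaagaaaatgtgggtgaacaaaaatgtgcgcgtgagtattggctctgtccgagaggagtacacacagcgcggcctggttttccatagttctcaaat
mrps-7, chrIV:14767843-14767943, minus strand: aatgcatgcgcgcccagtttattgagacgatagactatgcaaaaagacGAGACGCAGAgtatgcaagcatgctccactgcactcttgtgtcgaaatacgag
mrps-25, chrIV:1056614-1056714, plus strand: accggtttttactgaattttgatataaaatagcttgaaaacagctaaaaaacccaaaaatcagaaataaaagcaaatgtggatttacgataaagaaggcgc
mrpl-49, chrV:12728411-12728511, plus strand: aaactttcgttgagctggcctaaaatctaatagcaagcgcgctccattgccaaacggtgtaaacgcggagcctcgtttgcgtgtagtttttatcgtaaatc
None of the 6 windows overlaps an annotated exon. Their GC content ran between 30.7% at mrps-25 and 47.5% at mrps-7.

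Among the large-subunit genes, the strongest peak was at mrpl-28, which encodes bL28m, the counterpart of a bacterial large-subunit protein. Its region (chrII:156029-156179) had a signal of 264 and rank 122 in the optimal list, with the summit 90 bp upstream of the 5′ end. The overlapping regions ranked 126 in replicate 1 and 124 in replicate 2, so the replicates placed it nearly alike. The gene mrpl-55 encodes a large-subunit protein known as L55, which bacteria lack. Its peak (chrIV:443649-444032, signal 199) ranked 222, with 205 in replicate 1 and 341 in replicate 2, and its summit was 144 bp upstream. At mrpl-18, for uL18m, whose bacterial counterpart binds the small ribosomal RNA of the large subunit, the peak (chrIII:8144709-8144805, signal 183) ranked 263, with 229 in replicate 1 and 367 in replicate 2. Its summit was 258 bp upstream, and the region was 97 bp wide, whereas 13 of the 15 regions were 384 bp wide. The mitochondria-specific subunit mL49 is encoded by mrpl-49, whose peak (chrV:12728269-12728652, signal 133) ranked 463, with 555 in replicate 1 and 392 in replicate 2. Its summit was 170 bp upstream. These 4 peaks were among the strongest 602 of the optimal list.

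The other 4 large-subunit peaks were weaker. The gene mrpl-45 encodes mL45, which in mammals tethers the ribosome to the inner membrane. Its peak (chrIII:1202170-1202553, signal 97.2) ranked 779, with its summit 354 bp upstream, the farthest of the 15. The peak of mrpl-47 (chrI:5244115-5244498, signal 93.3) ranked 827 and its summit lay 24 bp downstream of the 5′ end, in the gene's own 5′ UTR. The product, uL29m, sits by the exit tunnel in bacterial ribosomes. The peak of mrpl-34 (chrI:10192743-10193126, signal 85.8), whose product is annotated as mL43, ranked 928 with its summit 307 bp upstream. At mrpl-35, for bL35m, the peak (chrIII:3510101-3510484, signal 76.2) ranked 1111, and its summit lay 56 bp downstream in the coding exon. These summits of mrpl-47 and mrpl-35 were the only ones of the 15 downstream of the 5′ end. In replicate 2 the regions at mrpl-45, mrpl-47 and mrpl-35 ranked 2419, 1800 and 2034, well behind their ranks of 561, 691 and 1094 in replicate 1, whereas mrpl-34 ranked 963 in replicate 1 and 1025 in replicate 2.

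The 7 small-subunit peaks all had their summit upstream of the gene. The strongest was at mrps-35, for mS35, a subunit without a bacterial counterpart. Its region (chrV:18980998-18981381, signal 182) ranked 264, with 300 in replicate 1 and 219 in replicate 2, and its summit was 116 bp upstream. The gene mrps-7 encodes uS7m, whose bacterial counterpart starts the assembly of the head of the small subunit. Its peak (chrIV:14767701-14768084, signal 174) ranked 283, with 276 in replicate 1 and 301 in replicate 2, and its summit was 163 bp upstream. The peak of mrps-25 (chrIV:1056472-1056855, signal 136), for mS25, ranked 446, with 462 in replicate 1 and 477 in replicate 2, and its summit was 228 bp upstream. Across these 3 small-subunit genes the ranks differed little between the replicates.

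The other 4 small-subunit peaks were weaker. Bacterial counterparts of uS15m, uS17m and bS16m bind ribosomal RNA early in the assembly of the small subunit. At mrps-15, for uS15m, the peak (chrI:8692469-8692852, signal 114) ranked 609 with its summit 39 bp upstream, and it ranked 830 in replicate 1. Replicate 2 had no overlapping region at mrps-15, where its nearest summit was 3798 bp upstream. Only 4 of all 1205 optimal peaks lacked an overlapping region in replicate 2. The peak of mrps-17 (chrIII:6431740-6432123, signal 103) ranked 717, with 885 in replicate 1 and 590 in replicate 2, and its summit was 134 bp upstream. The gene mrps-18A encodes a member of the S18 family, and in mammals the product of the gene of this name sits in the large subunit. Its peak (chrIII:8331881-8332264, signal 88.9) ranked 879, with 705 in replicate 1 and 2495 in replicate 2, and its summit was 154 bp upstream. The weakest of the 15 was at mrps-16 (chrII:5473954-5474337, signal 74.5), with rank 1154 and its summit 227 bp upstream. It ranked 970 in replicate 1 and 1683 in replicate 2.

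**Figure D1:**
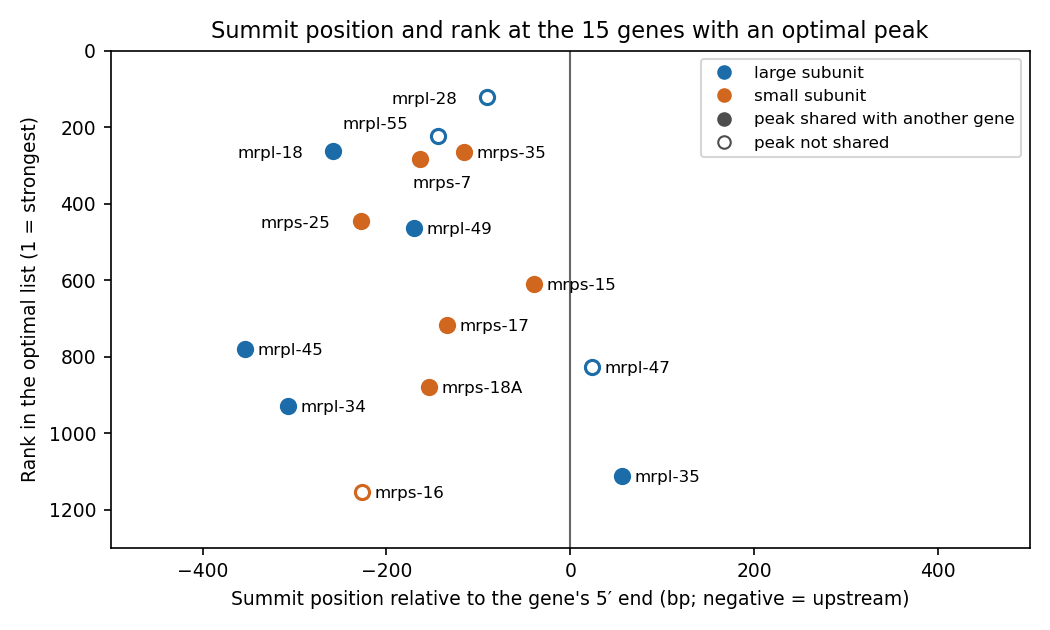
Summit position relative to the annotated 5′ end (horizontal axis, bp, negative values upstream) and rank in the optimal list (vertical axis, strongest at the top) for the 15 mitochondrial ribosomal protein genes with an optimal peak. Blue points are large-subunit and orange points small-subunit genes, and filled points mark peaks that also lay within 500 bp of another gene. Of the 15 summits, 13 were upstream, and the ranks ran between 122 at mrpl-28 and 1154 at mrps-16.

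Summits lay about as far from the 5′ end as at other target genes. The median position was 154 bp upstream at the mitochondrial ribosomal protein genes (quartiles -227.5 and -103 bp), with medians of -157 bp for the large and -154 bp for the small subunit. Over all 1101 genes with an optimal summit it was -175 bp (quartiles -274 and -93 bp). Summits were upstream at 13 of 15 of the mitochondrial ribosomal protein genes (86.7%, interval 59.5 to 98.3) and at 92.5% of all target genes. The median rank was 609 (n = 15) for the mitochondrial ribosomal protein genes, with 621 for the large and 609 for the small subunit, and 542 for all targets. None of the 15 peaks was among the 100 strongest, which held 99 of the 1101 targets (8.99%). A count of 0 of 15 has an upper exact limit of 21.8%.

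The replicates differed in how high they placed these peaks. All 15 overlapped one of the 1205 strongest regions of replicate 1, but only 9 (60%, interval 32.3 to 83.7) overlapped one of the 1205 strongest of replicate 2. Over all optimal peaks the shares were 89.9% in replicate 1 and 81.7% in replicate 2. Each lies inside the interval for the 15 peaks, which was 78.2 to 100 in replicate 1. The 6 peaks outside the top of replicate 2 were those of mrpl-35, mrpl-45, mrpl-47, mrps-15, mrps-16 and mrps-18A. The 9 genes whose peaks were in the top of both replicates were mrpl-18, mrpl-28, mrpl-34, mrpl-49, mrpl-55, mrps-7, mrps-17, mrps-25 and mrps-35. The signal of the overlapping regions ran between 51.0 and 169.9 in replicate 1 (15 peaks) and between 17.7 and 91.0 in replicate 2 (14 peaks). With 2 replicates no spread of a rank can be given, and the difference between replicates was not tested.

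**Figure D2:**
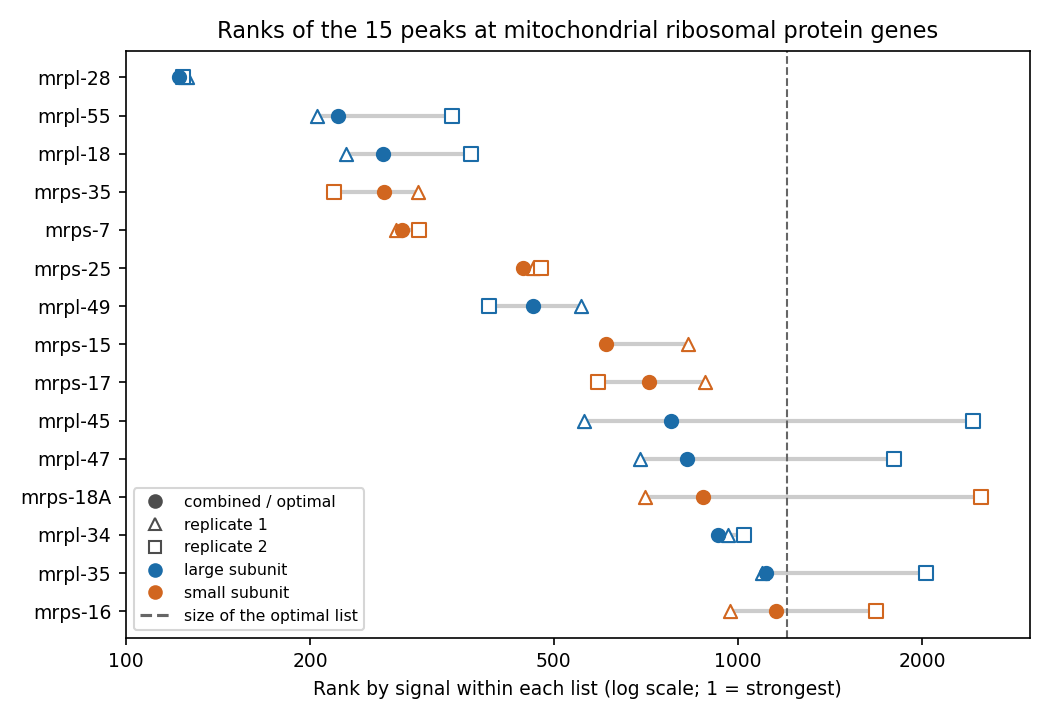
Rank by signal (horizontal axis, log scale, 1 the strongest) of the region at each of the 15 genes in the combined list (filled circles, the same rank as in the optimal list), replicate 1 (triangles) and replicate 2 (squares), with large-subunit genes in blue and small-subunit genes in orange. The 5 squares right of the dashed line, which marks the 1205 regions of the optimal list, and the missing square of mrps-15 are the 6 peaks outside the top of replicate 2.

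In 11 of the 15 cases (73.3%, interval 44.9 to 92.2) the summit was also less than 500 bp from the 5′ end of another protein-coding gene, against 54.0% of all target genes. The large subunit had 5 of 8 such genes and the small subunit 6 of 7. All 11 neighbours were on the other strand, and 10 were divergent, transcribed away from the mitochondrial ribosomal protein gene without overlap. The exception was sws-1, whose longest annotated transcript overlaps the start of mrps-35, although its 5′ end nearest to the summit is divergent. Between the closest annotated 5′ ends of each gene pair the distances were 143 to 579 bp. The summit was nearer to the neighbour in 5 cases, so distance alone does not assign these peaks to one gene. Only mrpl-28, mrpl-55, mrpl-47 and mrps-16 had a peak that no other gene shared.

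At 6 of the 11 shared peaks the mitochondrial ribosomal protein gene was nearer to the summit than its neighbour. The summit of mrpl-49 was 170 bp from that gene and 349 bp from rpl-28, which encodes eL28 of the cytosolic ribosome. The summit of mrps-15 was 39 bp from that gene and 285 bp from asg-1, annotated as a putative subunit g of the mitochondrial ATP synthase. The summit of mrps-7 was 163 bp from that gene and 308 bp from Y57G11C.3, a putative 6-phosphogluconolactonase, an enzyme of the pentose phosphate pathway. The others of the 6 were mrps-17 (134 bp, against 246 bp for txdc-9), mrps-25 (228 bp, against 351 bp for Y55F3AM.13) and mrpl-35 (56 bp, against 260 bp for M01F1.4, a transmembrane protein).

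At the other 5 the neighbour was nearer. The summit of mrpl-18 was 258 bp from that gene and 128 bp from C14B9.8, a regulatory subunit of phosphorylase b kinase, which controls glycogen breakdown. The summit of mrpl-45 was 354 bp from that gene and 184 bp from Y119D3B.12, related to the splicing factor Luc7. At mrps-35 the distances were 116 bp to the gene and 40 bp to sws-1, with the summit in an annotated 5′ UTR of sws-1. At mrps-18A they were 154 bp to the gene and 8 bp to ZC262.2, with the summit in the 5′ UTR of ZC262.2. At mrpl-34 they were 307 bp to the gene and 103 bp to lid-1, an alpha/beta hydrolase domain protein. When each summit was given to its nearest gene alone, 10 of the 70 genes kept a peak, 5 in each subunit, against 4.04% of all genes.

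**Figure D3:**
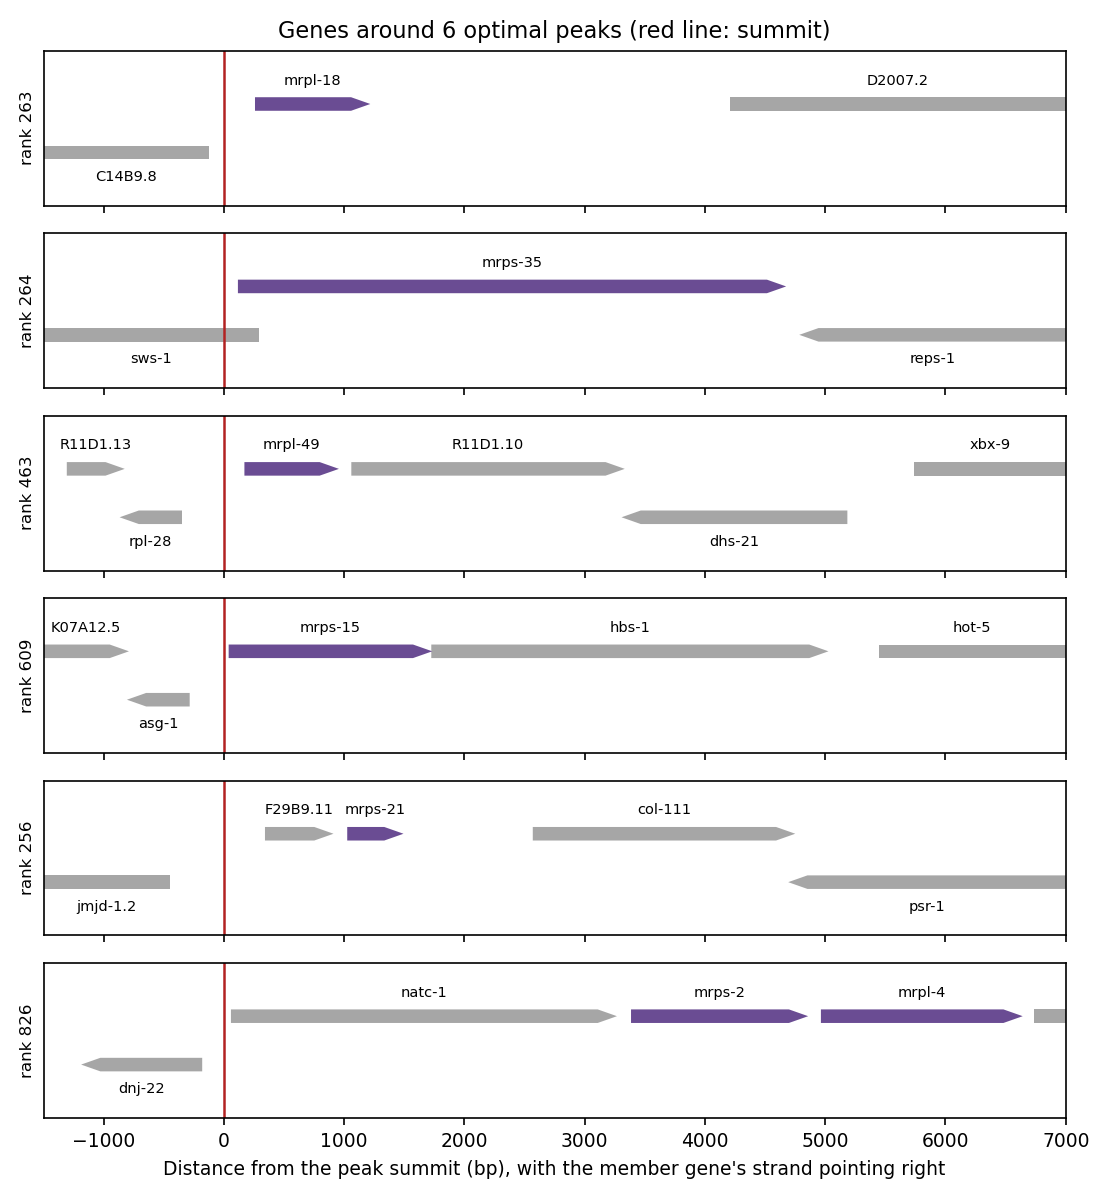
Genes around 6 optimal peaks, drawn to scale by distance from the summit (horizontal axis, bp, red line at 0), with mitochondrial ribosomal protein genes in purple and other protein-coding genes in grey, and each panel turned so that the named mitochondrial ribosomal protein gene points right. The upper 4 panels (mrpl-18, mrps-35, mrpl-49 and mrps-15) show neighbours on the other strand on the lower row, of which sws-1 overlaps the start of mrps-35, and the lower 2 panels show mrps-21 behind F29B9.11 and mrps-2 and mrpl-4 behind natc-1, with the summit upstream of the first gene.

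The remaining 55 genes had no optimal summit within 500 bp. At 3 of them an optimal summit lay between 500 and 1000 bp away. It was 524 bp upstream of mrpl-12 (rank 874), 956 bp upstream of mrpl-23 (rank 890) and 965 bp upstream of mrps-28 (rank 789). The median distance to the nearest optimal summit was 4370 bp over the 70 genes and 33687 bp over all protein-coding genes, whose median length was also greater (1126 bp for the 70 genes and 2027 bp for all). With a window of 1000 bp, 18 of the 70 genes had an optimal summit (10 large, 8 small), against 6.89% of all genes. With 250 bp the count was 12 (5 large, 7 small), against 3.71% of all genes, and mrpl-18, mrpl-34 and mrpl-45 were the ones lost.

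Weaker regions lay at many of the remaining genes. In the combined list 50 of the 70 genes (71.4%) had a summit within 500 bp, against 37.8% of all genes, with 29 of 41 in the large and 21 of 29 in the small subunit. In replicate 1 alone the count was 52 (30 large, 22 small), against 37.4% of all genes. In replicate 2 alone it was 47 (28 large, 19 small), against 36.5% of all genes. A summit was present in both replicate lists at 42 of the 70 genes (60%, interval 47.6 to 71.5), in replicate 1 alone at 10, in replicate 2 alone at 5 and in neither at 13. Over all genes, 4994 of 19973 had a summit in both replicate lists and 51.1% in neither. At 4 genes with an optimal peak the nearest combined-list summit was another, weaker one. It was at -108 bp with rank 2943 for mrpl-34, at 33 bp with rank 13307 for mrpl-49, at -24 bp with rank 8843 for mrps-16 and at -22 bp with rank 3572 for mrps-25. The combined list holds regions that were called as input for the comparison of replicates, so a summit there is weaker evidence of binding than one in the optimal list.

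The share grew as weaker regions were counted, and the subunits stayed close to each other. Among the 2000 strongest regions of the combined list, 20 of the 70 genes had a summit (11 large, 9 small), against 8.07% of all genes. Among the strongest 5000 the count was 28 (15 large, 13 small), against 13.9% of all genes. Among the strongest 10000 it was 38 (22 large, 16 small), against 20.4% of all genes. For the genes with a summit in the combined list, the median of the best rank was 2744 for the mitochondrial ribosomal protein genes (2915 for 29 large-subunit and 2572 for 21 small-subunit genes) and 8734 for 7544 genes overall.

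**Figure D4:**
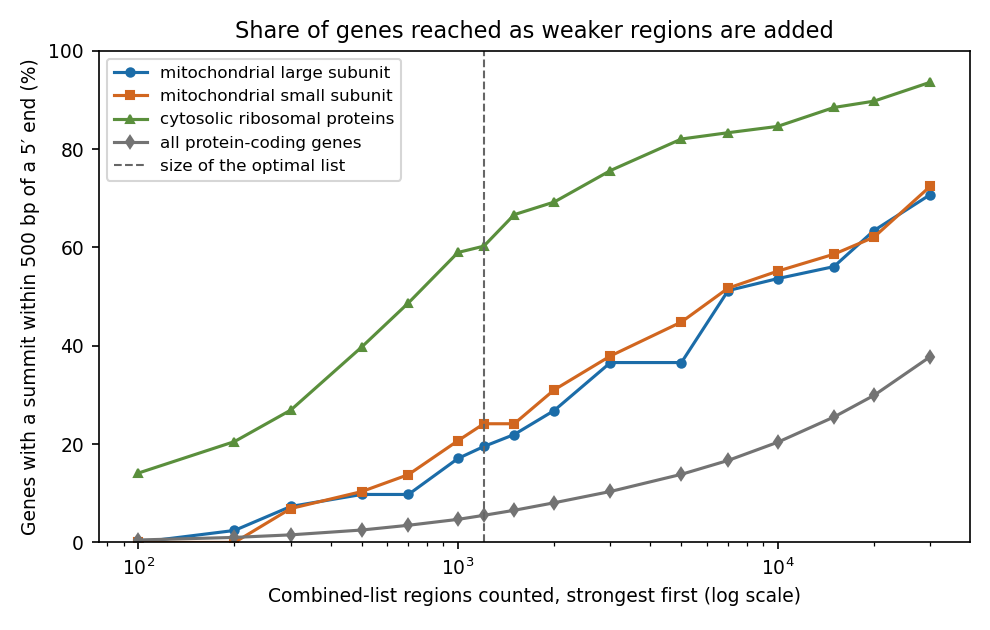
Share of genes with a combined-list summit within 500 bp of a 5′ end (vertical axis, percent) as the list is read further, strongest regions first (horizontal axis, log scale), for large-subunit (blue) and small-subunit (orange) mitochondrial ribosomal protein genes, cytosolic ribosomal protein genes (green) and all protein-coding genes (grey). At the dashed line, the size of the optimal list, the shares are 19.5%, 24.1%, 60.3% and 5.51% in that order.

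Just beyond the optimal list, the best ranks in the combined list belonged to 5 genes. The gene mrpl-39 had a summit 60 bp downstream of its 5′ end with rank 1489 (signal 63.2), and it ranked 1132 in replicate 1 and 4329 in replicate 2. The gene mrps-28 had one 57 bp upstream with rank 1657, in addition to the optimal summit farther upstream, and it ranked 1404 in replicate 1 and 18543 in replicate 2. These 2 regions stood higher in replicate 1. The summit at mrpl-17, for bL17m, was 154 bp upstream with rank 1696, and its ranks of 1932 in replicate 1 and 1570 in replicate 2 were similar. At mrps-10, for uS10m, the summit was 205 bp upstream with rank 1811, and it ranked 3564 in replicate 1 and 1282 in replicate 2. At mrpl-20 it was 130 bp upstream with rank 1840, with rank 1121 in replicate 1 and no summit within 500 bp in replicate 2. The gene with the weakest optimal peak, mrps-16, had rank 1154.

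The genes mrpl-1 and mrps-24 form a divergent pair of mitochondrial ribosomal protein genes, one for each subunit by symbol, and were singled out after their values were seen. They share a combined-list summit of rank 2154 on chromosome IV, 275 bp upstream of mrpl-1 and 69 bp upstream of mrps-24. The gene emc-6 overlaps mrpl-1 on the same strand, and its 5′ end lies between that of mrpl-1 and the summit. The summit was therefore nearer to emc-6 than to mrpl-1. The region ranked 4062 in replicate 1 and 1092 in replicate 2. No optimal summit lay near this pair.

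All 15 genes with an optimal peak were among the 41 that did not closely follow another gene on the same strand. A gene was counted as following another when its outermost 5′ end lay within 500 bp of the 3′ end of a protein-coding gene upstream on the same strand, or overlapped it. This is a rule on distance, because operons were not annotated in the files used here. By this rule 29 of the 70 mitochondrial ribosomal protein genes (41.4%) followed another gene, against 20.1% of all protein-coding genes. The gaps had a median of 106 bp. Of these 29 genes, 0 had an optimal summit within 500 bp of their own 5′ end (interval 0 to 11.9%), against 3.51% of all genes that follow another. The share over all genes lies inside that interval, so the count of 0 is near the background. Of the 41 that followed none, 15 had an optimal summit (36.6%, interval 22.1 to 53.1), against 6.02% of all such genes. The difference between following and other genes was not tested.

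At 13 of the 29 (44.8%, interval 26.4 to 64.3) an optimal summit was within 500 bp of the 5′ end at which the run begins, against 14.1% of all genes that follow another. These were 5 of 16 large-subunit and 8 of 13 small-subunit genes, a difference that was not tested. The genes mrps-2 and mrpl-4 have the same such summit, at natc-1, and it was counted for both. The interval treats the genes as independent. Counting a summit at either the gene itself or the first gene of its run gave 28 of the 70 genes, against 8.20% of all genes. In the combined list 16 of the 29 following genes had a summit of their own, against 38.0% of all following genes. Of the 41 other genes 34 did, against 37.7% of all other genes. With a gap limit of 200 bp, 22 genes followed another. Of these 0 had their own optimal summit, against 1.68% of all following genes, and 11 had one at the first gene, against 18.0%. With a limit of 1000 bp, 36 followed another. Of these 3 had their own, against 3.59% of all following genes, and 15 had one at the first gene, against 10.9%. Both of these limits were chosen after the data had been seen.

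**Figure D5:**
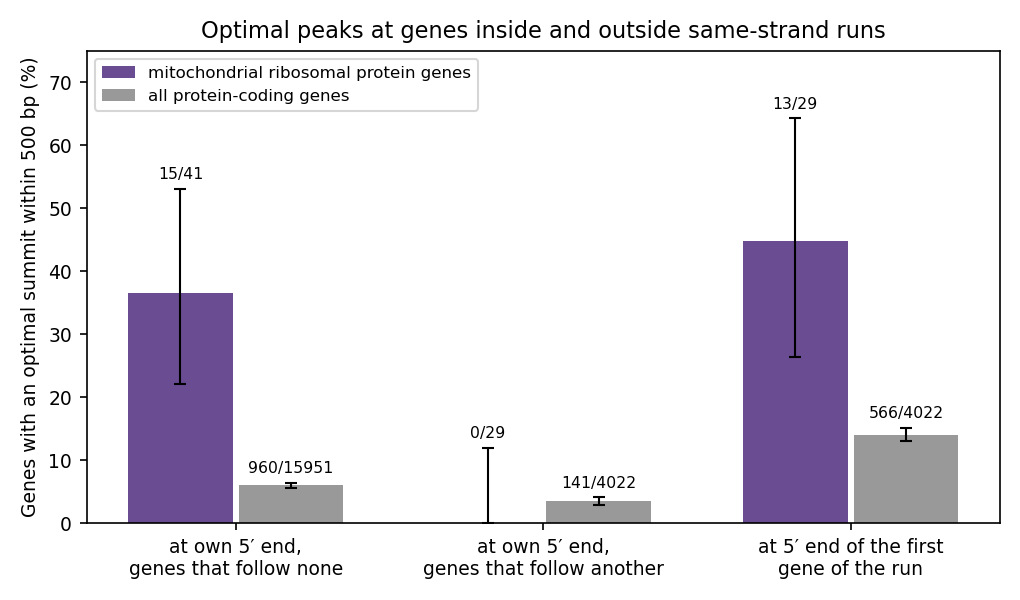
Share of genes with an optimal summit within 500 bp (vertical axis, percent, with 95% exact binomial intervals and counts above the bars) at the gene's own 5′ end for genes that follow none and for genes that follow another, and at the 5′ end of the first gene of the run. Purple bars are mitochondrial ribosomal protein genes and grey bars all protein-coding genes. The purple shares are 36.6%, 0% and 44.8%.

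Some of the first genes also encode mitochondrial proteins. The gene mrps-26 follows in the run of atp-2, which encodes the beta subunit of the mitochondrial ATP synthase, and the summit was 256 bp upstream of atp-2 with rank 459 and 6195 bp separating the 5′ ends of the 2 genes. The gene mrps-21 follows F29B9.11, annotated as cytochrome c oxidase polypeptide VIIc, with a gap of 114 bp. The summit there was 341 bp upstream of F29B9.11 with rank 256, and it ranked 298 in replicate 1 and 164 in replicate 2. The genes mrps-2, for uS2m, and mrpl-4, for uL4m, lie in that order behind natc-1, which encodes a subunit of an N-terminal acetyltransferase. The summit at natc-1 ranked 826 and was 58 bp upstream. This run thus held a gene of each subunit behind a single optimal peak. These summits can be shared too. Relative to the summit at natc-1, the 5′ end of dnj-22 on the other strand was at -181 bp. Relative to the summit at F29B9.11, that of jmjd-1.2 on the other strand was at -449 bp. Distance alone does not assign these 2 peaks to the first gene, and sharing was not described for the other runs.

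The strongest of the peaks at first genes was at tag-124, a putative tRNA pseudouridine synthase 4 genes before mrpl-53. It had rank 98 in the optimal list, 100 in replicate 1 and 111 in replicate 2. It was followed by rpn-3, a proteasome subunit before mrpl-32 (rank 125), and by clsp-1, the claspin gene before mrpl-54 (rank 136). The translation initiation factor gene eif-3.E, in the run of mrps-30, had rank 413, and F21D5.7, for a signal recognition particle protein in the run of mrps-33, had rank 448. Ranks were 713 at W04D2.4 before mrps-11, 757 at vps-37 before mrpl-48, 899 at uev-1 in the run of mrps-27 and 1158 at T14B4.3 before mrps-18.C. All of these ranks were those of the summit at the first gene and not at the mitochondrial ribosomal protein gene.

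By chromosome, III held 22 of the 70 mitochondrial ribosomal protein genes (31.4%), against 13.2% of all protein-coding genes. Of the 22, 5 had an optimal peak, against 9.96% of all genes on III. Chromosome I held 15 (21.4%, against 14.4% of all genes), of which 3 had a peak, against 8.83% of all genes on I. Chromosome II held 12 (17.1%, against 17.3%) with 2 peaks, against 6.00% of all genes there, and IV held 11 (15.7%, against 16.4%) with 3 peaks, against 5.43%. Chromosome V held 10 of the 70 and 4994 of all 19973 genes, with 2 peaks among the 10, against 2.80%. Chromosome X held none of the 70 and 13.7% of all genes. The placement among chromosomes was not tested.

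The word GCAAACAC, searched on both strands within 50 bp of the summit, was present at 5 of the 15 peaks (33.3%, interval 11.8 to 61.6), those of mrpl-28, mrpl-45, mrps-15, mrps-16 and mrps-17. It was present at 84 of all 1205 optimal peaks (6.97%) and at 8.92% of the optimal peaks within 500 bp of a protein-coding gene. In windows of the same 101 bp placed 175 bp upstream of the outermost 5′ end it was present at 1.02% of all promoters. It was present at 0 of the 55 mitochondrial ribosomal protein genes without an optimal summit (interval 0 to 6.49%), a count near the background. The mrpl-45 peak held 2 copies. The centre of the nearest copy was at the summit of mrps-17, 7 bp from that of mrps-16, 9 bp from that of mrpl-45, 24 bp from that of mrps-15 and 41 bp from that of mrpl-28. At 4 of the 5 genes the word was on the strand of the gene, and at mrps-15 it was on the other.

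The word AGACGCAG, or GAGACGCA or GACGCAGA which overlap it, was present at 1 of the 15 peaks, that of mrps-7, where the centre of AGACGCAG was 2 bp from the summit. At least 1 of these 3 overlapping words was present at 127 of the 1205 optimal peaks (10.5%) and at 1.68% of promoters. Any of the 4 words was present at 6 of the 15 peaks (40%, interval 16.3 to 67.7), at 17.3% of all optimal peaks and at 2.67% of promoters. These words were first found in the same peaks, so their presence describes the peaks and is not independent evidence. A match is not shown to be a binding site, and the other 9 windows merely lack these letters. The GC content of the windows had a median of 45.5% at the mitochondrial ribosomal protein genes, 47.5% at all optimal peaks and 33.7% at promoters, and its part in these shares was not tested.

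A longer shared element was noticed when the windows at the strongest peaks were read. It is printed here because 3 of the 4 strongest peaks among the 15 hold it, with CTCTCNGAC in capitals and 8 bases on either side, 5′ to 3′ on the strand that carries it.
mrpl-28, chrII:156063-156087, minus strand: gcgtagtcCTCTCGGACtacctgaa
mrpl-18, chrIII:8144750-8144774, minus strand: gtgtactcCTCTCGGACagagccaa
mrps-35, chrV:18981202-18981226, plus strand: gtgtactcCTCTCCGACaacgggtt
The centre of the element was 24 bp from the summit at mrpl-28 and mrps-35 and 5 bp from it at mrpl-18. It lay on the strand of the gene at mrpl-28 and mrps-35 and on the other strand at mrpl-18. Searched on both strands, it was present at 3 of the 15 peaks (20%, interval 4.33 to 48.1) and at 41 of the 1205 optimal peaks (3.40%), of which 32 were among the strongest 602. It was present at 0.245% of promoters and at 0 of 45 peaks at cytosolic ribosomal protein genes (interval 0 to 7.87%). At the 55 promoters of mitochondrial ribosomal protein genes without an optimal summit it was present at 0 (interval 0 to 6.49%). The share over all optimal peaks lies inside the first interval and that over all promoters inside the second. Both counts of 0 are thus near the background. Since the element was chosen after these sequences were seen, the counts are a description only.

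Genes that work with the mitochondrial ribosome were described from a list of 43 symbols, of which 31 were matched. The list held mainly translation factors, tRNA ligases, assembly factors and genes for transcription of mitochondrial DNA. It also held dap-3, whose product is named as the small-subunit protein mS29 but whose symbol falls outside the rule for the 70 genes. No optimal or combined-list summit lay within 500 bp of dap-3. An optimal summit lay within 500 bp of 5 of the 31 (16.1%, interval 5.45 to 33.7), against 5.51% of all protein-coding genes, a share just inside that interval. With 250 bp the count was 3, against 3.71% of all genes. The elongation factor gene gfm-1 had rank 205 with the summit 165 bp upstream, and tufm-2, annotated as a protein-synthesizing GTPase, had rank 323 with the summit 140 bp upstream. The mitochondrial glutamyl-tRNA synthetase gene ears-2 had rank 324, with the summit 21 bp upstream. The others were the lysine ligase gene kars-1 (rank 394, 446 bp upstream) and the threonine ligase gene tars-1 (rank 1172, 357 bp upstream), whose annotated products are not mitochondrial alone. At 3 of the 5 genes (60%, interval 14.7 to 94.7) the peak was shared with another gene, against 54.0% of all target genes. The other gene was exoc-7 at tufm-2, uncp-18 at ears-2 and kel-1 at tars-1. In the combined list 22 of the 31 genes had a summit, against 37.8% of all genes.

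Among 13 genes for import of proteins into mitochondria, on which every subunit named here depends, 5 had an optimal summit (38.5%, interval 13.9 to 68.4), against 5.51% of all protein-coding genes. With 250 bp the count was 2 of 13, against 3.71% of all genes. They were the receptor gene tomm-20 (rank 450), the inner membrane channel gene timm-23 (rank 553), the genes tin-9.2 (rank 601) and tin-9.1 (rank 1144) for small chaperones between the membranes, and timm-17B.1 (rank 1149). Their summits were between 101 and 325 bp upstream. The summit of tin-9.2 was also within 500 bp of dli-1 and exos-4.1. Its peak was the only shared one (1 of 5, 20%, interval 0.505 to 71.6), against 54.0% of all target genes.

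Set beside cytosolic ribosomal protein genes, the mitochondrial ones had fewer optimal summits within 500 bp and nearer ones, and the shares were close with a narrower window. An optimal summit lay near 15 of 70 mitochondrial genes (21.4%, interval 12.5 to 32.9) and 47 of 78 cytosolic genes (60.3%, interval 48.5 to 71.2), so the intervals do not overlap. The median position was -154 bp at the mitochondrial and -294 bp at the cytosolic genes. With a window of 250 bp the counts were 12 of 70 mitochondrial genes (17.1%, interval 9.18 to 28.0) and 11 of 78 cytosolic genes (14.1%, interval 7.26 to 23.8). The share was then slightly higher at the mitochondrial genes, but these intervals overlap over most of their length. With 1000 bp they were 18 of 70 (25.7%) and 52 of 78 (66.7%). The median rank was 609 for mitochondrial and 327 for cytosolic genes with a peak. Of the mitochondrial genes 41.4% followed another gene by the distance rule, and of the cytosolic genes 10.3%. The difference in share between the families was not tested.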

How the data were processed

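ChIP-seq of C04F5.9 tagged with GFP and FLAG was available for 2 biological replicates of L1 larvae, grouped and numbered from the labels. The regions were called by the authors on aligned reads against a control alignment, per the companion text of the deposited files. Which aligner and caller were used, in which versions and with which cutoff for the optimal list, is not given in the sources used here. The signal deposited by the authors for each region was used to rank regions within a list. The −log10 value deposited by the authors beside it, which may be of a q value or of the measure of agreement between replicates, was 2.93 in all optimal regions and did not order them. Summits are the deposited offsets added to the region start. The control alignment and the ce10 lists were not analysed here.

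Distances were computed with Python 3.11.15 and numpy 2.4.6, and exact binomial intervals with scipy 1.17.1. A gene had a summit where it lay within 500 bp of any annotated 5′ end. Genes came from Ensembl release 115, and sequence and product names from RefSeq (WBcel235, ce11). The distance steps were tested on simulated summits. Named genes are those with an optimal summit within 500 bp, those with 1 at 500 to 1000 bp, and the 5 best of the rest by combined rank. Partner and import genes are named where they have an optimal summit within 500 bp. The members and lists were chosen with earlier results of these data known. Alternatives were other windows, the nearest gene alone, the outermost 5′ end, the strongest 602 peaks, each replicate alone and the first gene of a run.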

Additional observations from a re-analysis of the deposited data

How the results depend on the processing

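Without replicate 1 or replicate 2 (the 1205 strongest regions of the other taken as the list) the count of mitochondrial ribosomal protein genes with a summit was 11 to 18, against 15 from the optimal list. The share of all genes was 5.51% without replicate 1 (11 of the 70 genes) and 5.33% without replicate 2 (18 of the 70). The count was 6 to 11 for the large subunit, 5 to 7 for the small, and 9 to 13 for peaks shared with a neighbour. The median position was -171 to -147.5 bp. The combined-list count of 50 became 47 without replicate 1, against 36.5% of all genes, and 52 without replicate 2, against 37.4%. The top of replicate 1 alone added mrpl-12, mrpl-20 and mrpl-39, and that of replicate 2 alone added mrpl-1 and mrps-24 and lacked 6 of the 15. A window of 250 bp, which reached 3.71% of all genes, moved the large-subunit count to 5, shared peaks to 3, partners to 3 and import genes to 2. Giving each summit to its nearest gene alone, which reached 4.04% of all genes, moved the large-subunit count to 5 and shared peaks, by construction, to 0. The strongest 602 peaks reached 7 genes (4 large, 3 small), against 3.08% of all genes, and 5 of the 7 shared their peak. Counting the first gene of a run gave 28 genes, against 8.20% of all genes. In all, 42 values under these alternatives stayed within 1.5 times the count, or 1 SD of the positions, and 11 did not. The order between groups turned in places. With 250 bp the share was slightly higher at mitochondrial than at cytosolic ribosomal protein genes (17.1% and 14.1%), with intervals that overlap over most of their length. Without replicate 2 it was higher in the large subunit (11 of 41) than in the small (7 of 29). Neither change of order was tested. No paired analysis was possible because there is 1 group. Read depth is unknown, so how depth limits the weaker regions cannot be given.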
